A study of Homo sapiens with 8 samples.

Results

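The replication-dependent core histone genes were taken as every row of the deposited RNA-seq table named H2AC, H2BC, H3C or H4C followed by a number, which gave 60 of the 38637 genes listed. They comprised 16 H2A, 17 H2B, 13 H3 and 14 H4 genes, of which 49 lay on chromosome 6 and 11 on chromosome 1 of hg38. RNA was measured in SW1990, an established human pancreatic cancer cell line, in 4 groups of 2 libraries each. Vector cells carried the empty vector and EBF2-OE cells overexpressed EBF2, a transcription factor. Vehicle cells received the vehicle alone, and GSK-LSD1 cells received GSK-LSD1, an inhibitor of the histone demethylase KDM1A (LSD1), at 2000 µM according to the sample labels. This dose is uncertain, since the methods state none for RNA-seq and the doses given elsewhere for these cells are lower. The labels and methods give neither the promoter or clone behind EBF2-OE nor the length of the GSK-LSD1 treatment, and they do not say whether the libraries of a group came from separate cultures, so that p-values measure the spread between these libraries only. The numbers that follow a group name are the library numbers of the labels.

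Core histones are the proteins around which DNA is wound: H2A, H2B, H3 and H4 assemble into the nucleosome. A dividing cell needs new histones when it copies its DNA, and the genes described here supply them in S phase, many of them side by side in clusters and some as divergent H2A and H2B pairs that share the DNA between their starts. Their mRNAs differ from nearly all others in that most end after a short stem-loop instead of a poly(A) tail. The stem-loop is bound by SLBP, which takes part in the processing, translation and decay of the mRNA. The libraries were made from poly(A)-selected RNA, so the values below are those of the histone RNA that passed this selection, not of all histone mRNA in the cells.

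The stem-loop is shown because it defines this class of mRNA. In GENCODE v44 transcripts of hg38, a 16-base hairpin that starts with GG and ends with CC, and whose first and last 6 bases pair around a 4-base loop when G-T pairs are allowed, was found in all 60 genes. In 59 of them a transcript ended within 60 bases of it, while in H2BC21 the only transcript ran on for 1729 bases. The hairpin came in 10 versions, of which the 4 carried by more than 1 gene are printed with the loop in capitals, each named by its gene of highest mean level.
H2AC6 (34 genes of the H2A, H2B and H3 types): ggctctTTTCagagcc
H4C3 (9 genes of the H4 type): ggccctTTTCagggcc
H2BC12 (7 genes of the H2A, H2B and H3 types): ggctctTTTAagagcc
H4C9 (4 genes of the H4 type): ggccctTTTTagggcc
The first and second versions had the same loop and differed in the stem. The third was carried by H2BC12, H2BC5, H2BC11, H2BC4, H2BC7, H2AC21 and H3C8.

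The promoters of the family shared short elements. Of the 60 genes, 55 had a promoter in the RefSeq table of GRCh38.p14, which spans 250 bases before to 50 after the start. The octamer ATTTGCAT, the element that OCT1 (POU2F1) binds, was present on either strand in 26 of them, or 47.3%, against 1.80% of all 27305 promoters. It stood in 82.4% of the H2B and 73.3% of the H2A promoters, in 1 of 11 H3 promoters and in 0 of 12 H4 promoters. The CCAAT box was found in 83.6% against 35.7% of all promoters, in every H2A, H2B and H3 promoter and in 3 of the 12 H4 promoters. TATAAA was found in 69.1% against 11.95%. These are matches of letters only, and an element between the starts of a divergent pair can count for both of its genes.

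Divergent H2A and H2B genes are shown next because the levels within a pair differed widely. There were 11 pairs whose starts faced away from each other within 1000 bases, and the 3 regions below run from the H2B start on the minus strand to the H2A start on the plus strand, printed as the plus strand of hg38 with the octamer, the CCAAT box and TATAAA in capitals on either strand. TTTATA is TATAAA on the other strand, and both overlap in TTTATAAA.
H2BC12 and H2AC12, chr6:27146859-27147105: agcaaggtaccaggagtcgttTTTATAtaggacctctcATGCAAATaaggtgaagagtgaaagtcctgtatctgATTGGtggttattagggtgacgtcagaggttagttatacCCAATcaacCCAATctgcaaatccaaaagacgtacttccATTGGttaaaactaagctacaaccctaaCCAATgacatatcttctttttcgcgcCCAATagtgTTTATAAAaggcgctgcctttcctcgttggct
H2BC11 and H2AC11, chr6:27132796-27133042: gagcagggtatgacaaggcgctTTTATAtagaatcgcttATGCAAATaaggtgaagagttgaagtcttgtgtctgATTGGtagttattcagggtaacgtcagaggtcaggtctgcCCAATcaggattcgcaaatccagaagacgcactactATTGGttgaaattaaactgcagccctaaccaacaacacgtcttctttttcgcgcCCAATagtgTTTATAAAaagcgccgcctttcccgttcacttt
H2BC4 and H2AC6, chr6:26123927-26124171: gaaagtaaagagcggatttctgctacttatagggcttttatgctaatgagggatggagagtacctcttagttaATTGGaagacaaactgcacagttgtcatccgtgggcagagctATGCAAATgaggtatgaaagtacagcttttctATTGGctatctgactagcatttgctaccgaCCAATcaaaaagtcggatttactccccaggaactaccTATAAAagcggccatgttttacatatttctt
The first and second regions were 247 bases each and differed by 49 single-base edits, or 19.8% of their length, with 1 octamer in each. The third was 245 bases long, was 118 edits from the first, and also held 1 octamer. On the per-length scale of TPM, counts scaled by gene length and library total, mean H2BC12 was 108-fold higher than H2AC12, whereas H2BC11 stood at 0.641 times the level of H2AC11 and H2BC4 at 0.0799 times that of H2AC6. H2AC12 had between 4 and 15 counts in a library, so its ratio is coarse. These ratios rest on the listed lengths, which extend beyond the short histone transcript for H2BC12, H2BC4 and H2BC21 as described below. In counts, which are not corrected for length, the same ratios were 206, 0.611 and 0.379. Among the other pairs the H2B gene was 20.3-fold higher in H2BC21 and H2AC20 (90.5-fold in counts), 2.23-fold in H2BC15 and H2AC15 and 1.09-fold in H2BC17 and H2AC17, and lower in H2BC8, H2BC7, H2BC14 and H2BC13. H2AC20 had between 2 and 13 counts in a library, so its ratio is coarse too. The same holds for H2BC14 and H2AC14, with 15 and 38 counts over the 8 libraries. H2AC1 and H2BC1, a pair known from testis, were at 0 counts in all 8 libraries, which allows up to 3 counts in each by counting error.

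The libraries held 20453362 to 27054876 counts on genes, of which 2888 to 5014 fell on core histone genes. EBF2 itself, the gene overexpressed in EBF2-OE, had 28 counts in each Vector library, 5818 in EBF2-OE 2 and 90100 in EBF2-OE 3, so the EBF2-OE libraries differed widely from each other. KDM1A, which GSK-LSD1 inhibits as a protein, was at 119 to 177 TPM throughout. Among markers of pancreatic ductal epithelium, KRT7, KRT8, KRT18 and MUC1 were all above 123 TPM in every library, whereas EPCAM, KRT19 and CDH1 were below 1.6 TPM in every library, so that the labelled cell type rests on the former 4. Markers of acinar and islet cells were at 0.236 TPM or less, PTPRC at 0.122 TPM or less and the fibroblast gene COL1A1 at 30.5 to 45.2 TPM.

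Few histone genes carried most of the signal. Of the 60, 3 had no count in any library (H2AC1, H2BC1 and H4C13), 18 had at most 10 counts in every library, and 39 had more than 10 in at least 1. Only 25 reached 10 counts and 4 reached 100 counts in every library. The 5 genes of highest mean TPM held 65.2% and the first 10 held 77.1% of all core histone counts. H2BC12, an H2B gene on chromosome 6, alone took 42.7%. H2B genes made up 60.5% of the summed TPM, H2A genes 21.3%, H4 genes 9.10% and H3 genes 9.06%, and the chromosome 6 genes 93.2%.

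H2BC12 stood at 210.0 and 286 TPM in Vector 2 and 3, 204 and 303 in EBF2-OE 2 and 3, 159.5 and 162 in Vehicle 1 and 2, and 180.1 and 184 in GSK-LSD1 1 and 2. It was the highest member in each of the 8 libraries. H2AC6, an H2A gene, followed at 79.4 and 48.3 TPM in Vector, 36.8 and 55.1 in EBF2-OE, 33.3 and 25.7 in Vehicle, and 35.3 and 39.99 in GSK-LSD1. Both Vector libraries and EBF2-OE 3 were above all Vehicle and GSK-LSD1 libraries for H2AC6, an order that was not counted over all genes.

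H2AC11, another H2A gene, was at 22.7 and 14.4 TPM in Vector, 17.4 and 22.7 in EBF2-OE, 27.2 and 28.3 in Vehicle, and 33.6 and 32.8 in GSK-LSD1. H2BC21, an H2B gene of the chromosome 1 cluster, was at 23.6 and 24.6 TPM in Vector, 21.0 and 39.8 in EBF2-OE, 18.8 and 19.0 in Vehicle, and 24.3 and 23.0 in GSK-LSD1. H2AC11 was thus lowest in a Vector library, and H2BC21 highest in EBF2-OE 3. H2BC15 read 23.5 and 18.2 TPM in Vector, 14.4 and 21.1 in EBF2-OE, 11.1 and 15.1 in Vehicle, and 17.0 and 20.6 in GSK-LSD1. H2BC5 read 20.4 and 18.3 TPM in Vector, 18.2 and 21.1 in EBF2-OE, 15.3 and 17.3 in Vehicle, and 14.5 and 15.8 in GSK-LSD1. Both H2B genes were lower in Vehicle than in Vector, with no overlap. Of all genes tested, 35.6% likewise had both Vector libraries above both Vehicle libraries.

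H3C10, the H3 gene of highest mean level, read 17.0 and 11.9 TPM in Vector, 11.8 and 16.6 in EBF2-OE, 16.3 and 18.2 in Vehicle, and 16.7 and 19.9 in GSK-LSD1. H2BC11 read 18.5 and 22.0 TPM in Vector, 15.7 and 25.1 in EBF2-OE, 9.54 and 14.4 in Vehicle, and 11.9 and 10.7 in GSK-LSD1. Its Vehicle and GSK-LSD1 libraries were all below its Vector and EBF2-OE libraries, an order that was not counted over all genes. H4C9, the H4 gene of highest mean level, read 10.7 and 8.66 TPM in Vector, 14.1 and 7.06 in EBF2-OE, 16.5 and 25.7 in Vehicle, and 17.9 and 25.6 in GSK-LSD1. H2BC9 read 13.1 and 6.96 TPM in Vector, 12.4 and 8.59 in EBF2-OE, 18.5 and 19.98 in Vehicle, and 13.5 and 18.5 in GSK-LSD1. H4C9 was highest in a Vehicle and a GSK-LSD1 library. Below H2BC12, every gene of this order overlapped in its library values with the next. The other 50 genes had mean levels below 12 TPM.

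**Figure D1:**
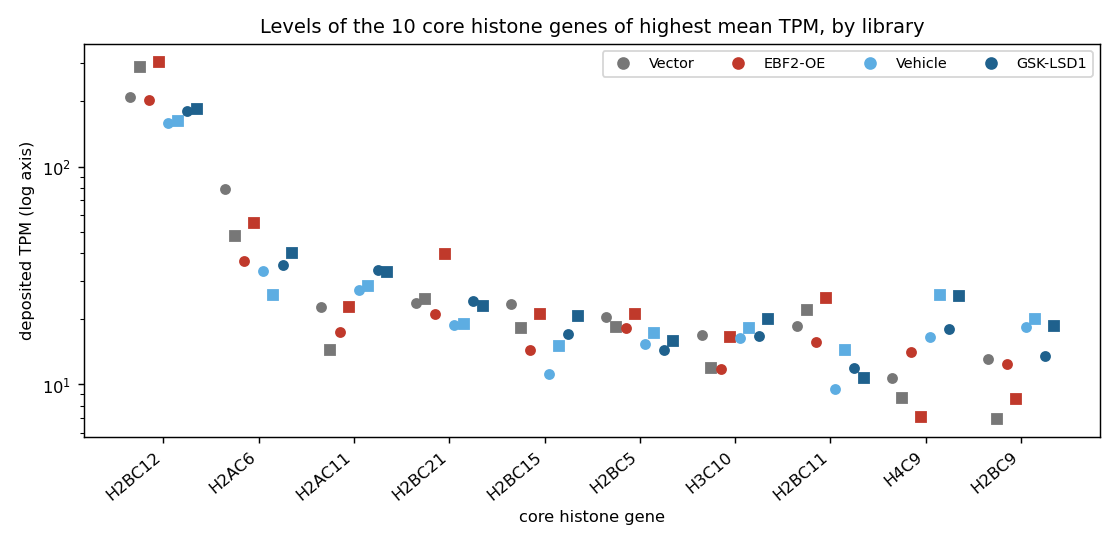
Deposited TPM (log axis) of the 10 core histone genes of highest mean level, with 1 point per library coloured by group, circles for the library of the lower number and squares for that of the higher. H2BC12 lies above the others in every library, from 159.5 to 303 TPM.

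Listed gene models bear on these values, because TPM divides by the listed length. A short histone mRNA without a tail is about as long as its coding part, yet 8 genes (H2BC12, H2BC21, H2BC5, H2BC4, H2BC18, H3C4, H3C6 and H4C15) were listed at more than 600 bases, and these held 68.7% of the core histone counts. In GENCODE v44, 13 core histone genes had a transcript well beyond the short one in length. Among them were genes listed short: H2AC6 (up to 1668 bases), H2BC15 (4137), H3C10 (1250) and H2BC11 (950) are examples. H2BC12 was listed with 887 bases of exon at chr6:27138293-27146858 on the minus strand, while its transcript in GENCODE v44 had 495 bases. The span of H2BC12 includes H4C9 (chr6:27139282-27139678), which lies on the opposite strand, and the kit does not mark strand, so reads of this pair cannot be told apart where their exons meet. The listed H3C4 gene (chr6:26196784-26199293) overlaps H2AC7 on the same strand. Near-identical copies are a further limit: 10 genes shared more than 50% of their 150-base stretches with a gene of the same type (H2AC13 and H2AC14, H2AC18 and H2AC19, H3C14 and H3C15, H4C11 and H4C12, and H4C14 and H4C15), and these reached at most 171 counts in a library. H2AC17 shared 58.3% of its stretches with a transcript annotated to H3C12, an H3 gene. The multi-mapping setting of the counting is not given in the sources used here. No stretch was shared by 47 genes.

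Summed over all 60 genes, the level was 630.0 and 605 TPM in Vector 2 and 3, 463 and 699 in EBF2-OE 2 and 3, 481 and 500.4 in Vehicle 1 and 2, and 521 and 539 in GSK-LSD1 1 and 2. In CPM, counts scaled by library total only, the sums were 182 and 186, 141 and 221, 141 and 145, and 161 and 158, in the same order. EBF2-OE 2 and EBF2-OE 3 lay on either side of both Vector libraries, and both GSK-LSD1 libraries lay above both Vehicle libraries. In bulk RNA, fewer cells in S phase and less histone RNA per cell cannot be told apart. No test was made on these sums.

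**Figure D2:**
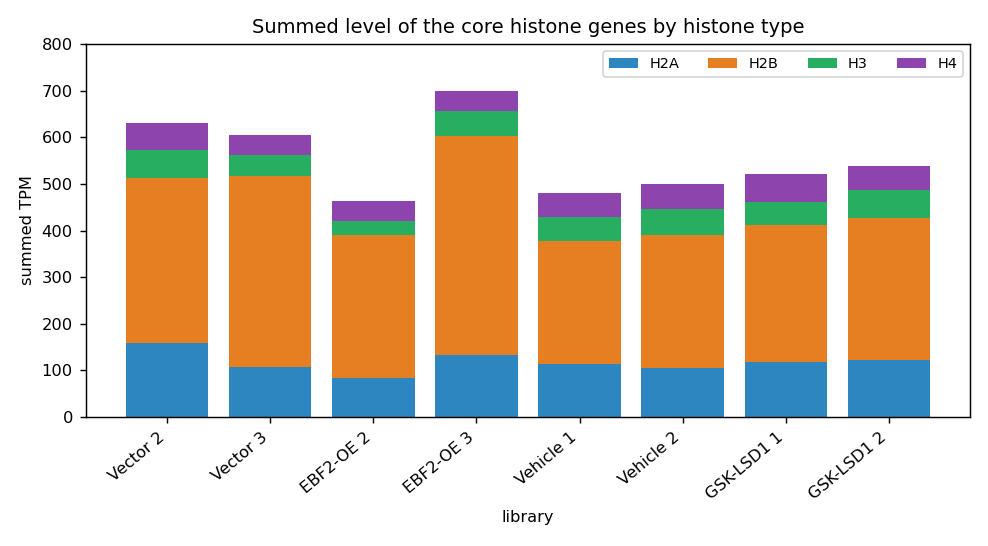
Summed deposited TPM of the 60 core histone genes in each library, stacked by histone type. EBF2-OE 2 is the lowest bar at 463 TPM and EBF2-OE 3 the highest at 699 TPM, and H2B genes form the largest part of each.

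Whether EBF2 overexpression altered these genes was asked first. No core histone gene was called in EBF2-OE against Vector, where a call required a fold change above 1.5 and an adjusted p-value under 0.05 by the edgeR quasi-likelihood test with Benjamini-Hochberg adjustment over all genes. Of 15560 genes tested, 0% were called higher and 0% lower, so EBF2 itself was not called either. It had 28 counts in each Vector library and 5818 and 90100 in the EBF2-OE libraries. The lack of calls therefore does not show that the core histone genes were unaltered. DESeq2 called 7 genes, none of them a core histone gene. At an unadjusted edgeR p-value under 0.05 there were 208 genes, 1 of them a core histone gene. Enough counts for the test were present for 31 of the 60 genes, of which 13 had a positive and 18 a negative log2 fold change, with a median of -0.07 beside 0.00 over all genes tested.

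The 3 members with the smallest p-values were H2BC17, H3C4 and H4C15. H2BC17, an H2B gene, read 14.6 and 10.7 TPM in Vector and 5.56 and 6.25 in EBF2-OE, against 12.7 to 15.2 in the other 4 libraries. Both EBF2-OE libraries were below both Vector libraries, and the log2 fold change was -1.06 ± 0.39 (SE, n = 2 libraries per group; edgeR unadjusted p = 0.033, adjusted p = 1.00). H3C4, an H3 gene, read 23.7 and 9.34 TPM in Vector and 2.63 and 10.1 in EBF2-OE, so the groups overlapped, at a log2 fold change of -1.32 ± 0.69. H2AC7, which overlaps it, had 9.34 and 5.44 TPM in Vector and 1.02 and 5.72 in EBF2-OE. H4C15 read 6.32 and 3.29 TPM in Vector and 3.53 and 2.85 in EBF2-OE, with a log2 fold change of -0.55 ± 0.36. With no low-count filter H3C4 passed as lower, at a log2 fold change of -1.33 and an edgeR adjusted p of 0.040.

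The EBF2-OE libraries differed from each other. Of the 31 genes tested, 27 were lower in EBF2-OE 2 than in EBF2-OE 3, where 51.3% of all genes tested were, and the median log2 ratio of EBF2-OE 3 to EBF2-OE 2 over the 31 was 0.59. In 11 of the 31, EBF2-OE 2 was the lowest and EBF2-OE 3 the highest of the 4 libraries, against 10.9% of all genes. Those 11 were H2AC8, H2AC15, H2AC16, H2BC4, H2BC5, H2BC7, H2BC11, H2BC18, H2BC21, H3C6 and H3C10. Both EBF2-OE libraries lay above both Vector libraries in 0 of the 31, against 12.1% of all genes, and below them in 2 (H2BC17 and H3C12), against 10.8%. Without EBF2-OE 3, 28 of 31 genes had a negative log2 fold change with a median of -0.49, and without EBF2-OE 2, 21 of 34 had a positive one with a median of 0.20. The direction of the median thus depended on which EBF2-OE library was used. The higher library was also the one with more EBF2.

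H2BC4, whose partner is H2AC6, was at 2.36 TPM in EBF2-OE 2 and 7.70 in EBF2-OE 3, beside 3.13 and 4.71 in Vector. H2BC18, on chromosome 1, was at 0.855 and 7.02 TPM, beside 3.39 and 2.61 in Vector. H2BC12 differed by 1.51-fold and H2BC21 by 1.92-fold between the EBF2-OE libraries on the scale of normalized CPM. For H2BC12 the log2 ratio of library 3 to library 2 was 0.59 in EBF2-OE and similar in Vector, at 0.50. For H2BC21 it was 0.94 in EBF2-OE and 0.11 in Vector. The 4 genes that were higher in EBF2-OE 2 than in EBF2-OE 3 were H4C9, H2BC9, H2AC17 and H4C15. Between Vector 3 and Vector 2 the same median log2 ratio was -0.33, with 10 of 31 genes higher in Vector 3. Of all genes tested in Vector against Vehicle, 49.7% were higher in Vector 3 than in Vector 2. The S phase genes summed to 4032 and 4034 TPM in EBF2-OE 2 and 3, beside 4114 and 4659 in Vector 2 and 3. The linker histone genes summed to 112 and 149 TPM in EBF2-OE 2 and 3, beside 151 and 148 in Vector 2 and 3. The part of EBF2 level, S phase content or RNA selection in the difference between the EBF2-OE libraries was not tested.

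**Figure D3:**
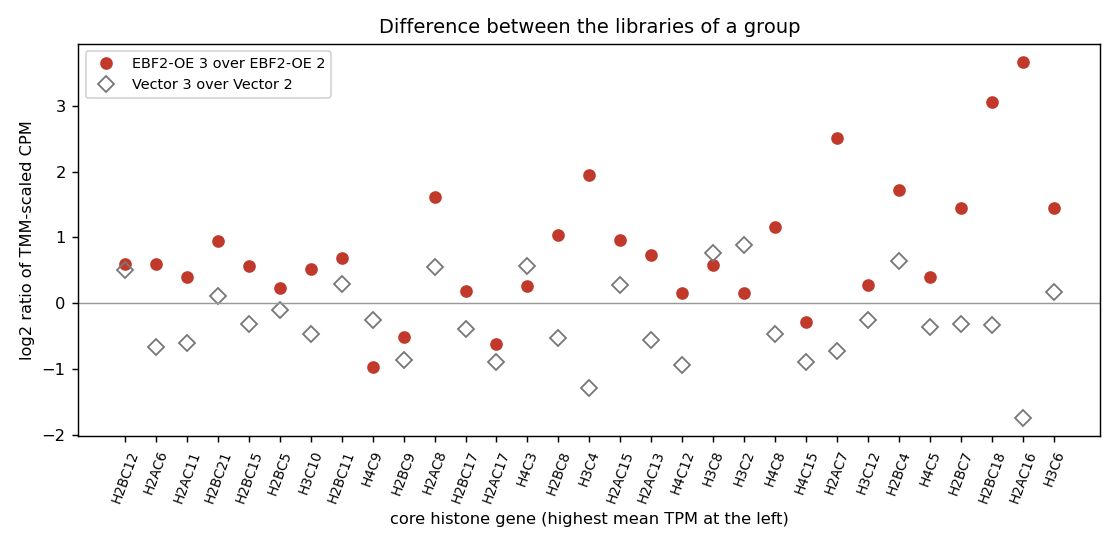
Log2 ratio of normalized CPM between the libraries of a group for the 31 core histone genes tested in EBF2-OE against Vector, as filled circles for EBF2-OE 3 over EBF2-OE 2 and open diamonds for Vector 3 over Vector 2. The circles lie above 0 for 27 genes (median 0.59) and the diamonds for 10 genes (median -0.33).

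GSK-LSD1 against Vehicle asked about inhibition of KDM1A. Of 31 core histone genes tested, 0 were called, while 2.53% of the 16059 genes tested were called higher and 2.04% lower. The 31 divided into 16 positive and 15 negative log2 fold changes, with a median of 0.01 beside -0.01 over all genes. At an unadjusted edgeR p-value under 0.05 there were 4 core histone genes and 5247 genes in all, and DESeq2 called 0 core histone genes. Both GSK-LSD1 libraries lay above both Vehicle libraries in 6 of the 31 (H2AC6, H2AC11, H2BC12, H2BC15, H2BC21 and H4C12), against 30.0% of all genes, and below in 1 (H3C12), against 30.2%.

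H2BC12 and H2BC21 were slightly higher in GSK-LSD1, past the adjusted p-value but not the fold limit. H2BC21 went from 18.8 and 19.0 TPM in Vehicle to 24.3 and 23.0 in GSK-LSD1, a log2 fold change of 0.36 ± 0.09 (edgeR adjusted p = 0.023). H2BC12 went from 159.5 and 162 TPM to 180.1 and 184, a log2 fold change of 0.21 ± 0.06 (edgeR adjusted p = 0.029). Without a fold limit 9.86% of all genes passed as higher, so 2 of 31 is not above that share. H2BC15, next by p-value, went from 11.1 and 15.1 to 17.0 and 20.6 TPM without passing, at a log2 fold change of 0.55 ± 0.20 (edgeR adjusted p = 0.082). In 1 fit over all 8 libraries the smallest edgeR adjusted p of any core histone gene in this comparison was 0.43, and with DESeq2 it was 0.10. With a library left out, H2AC6 was called without Vehicle 1 (log2 fold change 0.60) and H2BC15 without Vehicle 2 (0.77).

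A single GSK-LSD1 library stood apart in other RNAs that lack a poly(A) tail. The 24 listed RNAs of this kind outside the histones summed to 1999 CPM in GSK-LSD1 1, against 505 in GSK-LSD1 2 and 190 to 575 in the other libraries. RPPH1, the RNA of RNase P, was at 580.3 TPM in GSK-LSD1 1 and at most 5.82 TPM in the other 7 libraries, and RN7SL1, an RNA of the signal recognition particle, was at 8254 TPM and at most 1849. The core histone sums of the GSK-LSD1 libraries were 521 and 539 TPM, without such a gap. GSK-LSD1 1 was below GSK-LSD1 2 in 12 of the 31 genes, against 50.5% of all genes tested.

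Vector and Vehicle are the controls of the separate experiments. Their comparison shows what differs between these without EBF2 overexpression or GSK-LSD1, the empty vector and the vehicle included. It called 4 of 33 core histone genes tested. H2AC6 and H2BC12 were higher in Vector, where 5.79% of the 16019 genes tested were called higher, and H3C8 and H4C9 were lower, where 10.2% were called lower. H2AC6 read 79.4 and 48.3 TPM in Vector and 33.3 and 25.7 in Vehicle, a log2 fold change of 1.08 ± 0.28 (edgeR adjusted p = 0.040). H2BC12 read 210.0 and 286 TPM against 159.5 and 162, a log2 fold change of 0.61 ± 0.17 (edgeR adjusted p = 0.049).

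H3C8, an H3 gene with the third hairpin version above, fell from 11.5 and 9.88 TPM in Vehicle to 2.85 and 4.70 in Vector, a log2 fold change of -1.50 ± 0.36 (edgeR adjusted p = 0.034). Its EBF2-OE libraries read 3.67 and 5.42 TPM and its GSK-LSD1 libraries 10.4 and 10.6. The 4 vector-derived libraries thus lay below the other 4, an order that was not counted over all genes. H4C9 fell from 16.5 and 25.7 to 10.7 and 8.66 TPM, a log2 fold change of -1.14 ± 0.31 (edgeR adjusted p = 0.047). H4C9 was called lower and the overlapping H2BC12 higher in the same libraries.

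All 4 calls were close to the limit and depended on the setting. Without Vehicle 1 or without Vehicle 2 no core histone gene was called, whereas 12 were called without Vector 2 and 8 without Vector 3. Over all genes the calls moved alike, from 2558 to 12 and 235 without Vehicle 1 or 2 and to 4259 and 2925 without Vector 2 or 3. H2AC6 passed under each other alternative. DESeq2 called H2AC6, H2BC12 and H3C4 higher and no core histone gene lower. Both Vector libraries lay above both Vehicle libraries in 15 of the 33 genes, against 35.6% of all genes, and below in 10, against 35.3%. What separates the experiments (vector, vehicle, culture or library batch) cannot be told apart.

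Of the 8 genes with long listed models, of which H2BC12 was the only 1 called, 7 had a positive log2 fold change in Vector against Vehicle, with a median of 0.53 and H4C15 as the exception at -0.04, while the 25 shorter ones tested split into 12 positive and 13 negative with a median of -0.06. The median of all genes was 0.00. Large log2 fold changes that did not pass occurred in both classes, in H3C4 (1.53) and H3C6 (1.03) among the long models and in H2AC7 (1.79), H4C12 (1.02) and H2BC7 (1.01) among the short ones. H3C4 overlaps H2AC7 on the same strand, and H2BC7 is the divergent partner of H2AC7, so these are not separate loci. The classes were not tested against each other. They follow the listed length only, and some genes listed short, such as H2AC6, H2BC11, H2BC15 and H3C10, have a longer transcript in GENCODE v44. In EBF2-OE against Vector the medians of the long and short models were 0.06 and -0.11, and in GSK-LSD1 against Vehicle 0.15 and -0.03. By type, the median of the 12 H2B genes tested in Vector against Vehicle was 0.44, that of the 8 H3 genes -0.17, that of the 7 H2A genes 0.16 and that of the 6 H4 genes 0.12.

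**Figure D4:**
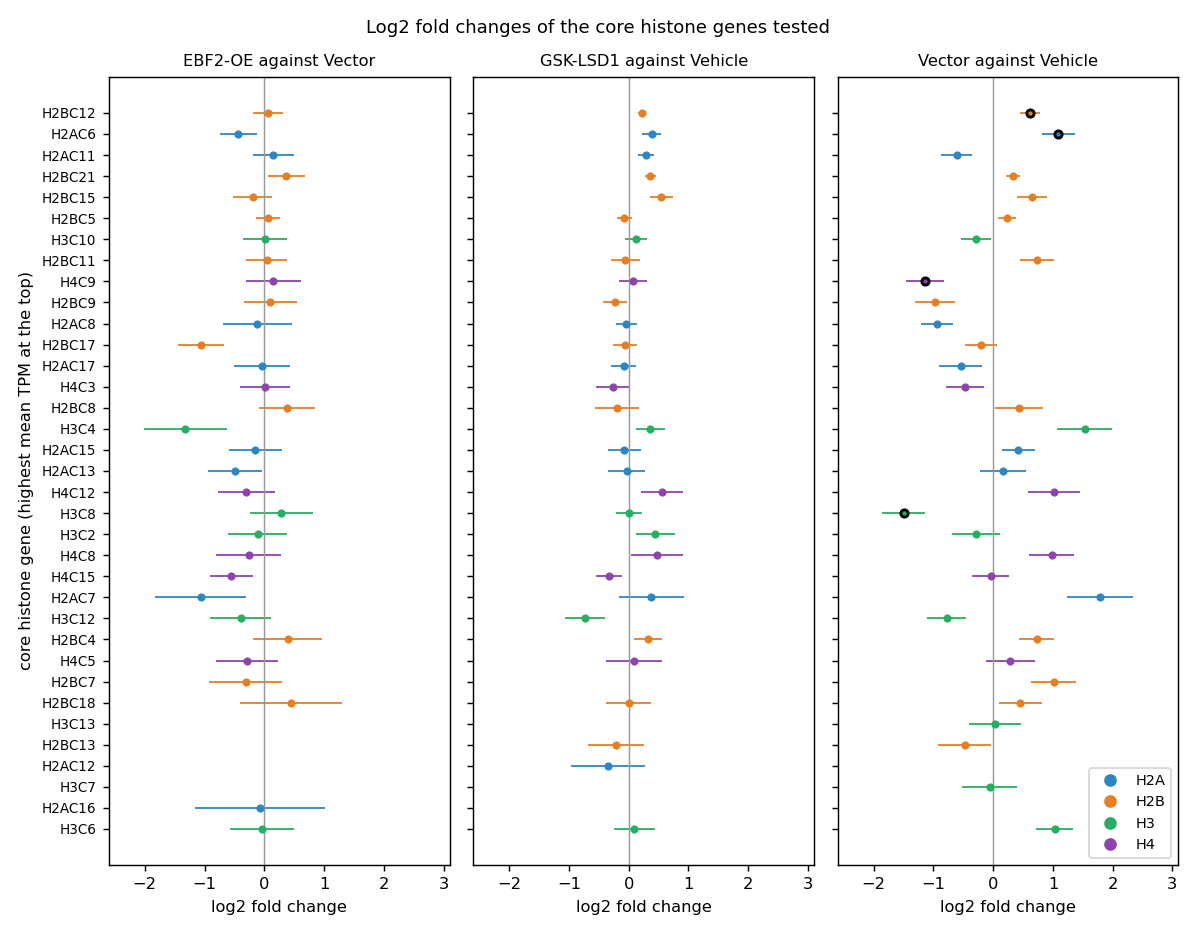
Log2 fold change with its SE (bars) from edgeR for each core histone gene tested in EBF2-OE against Vector, GSK-LSD1 against Vehicle and Vector against Vehicle (2 libraries per group), coloured by histone type and ordered by mean TPM. Black rings mark the 4 called genes, all in Vector against Vehicle.

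Whether the effects of EBF2-OE and GSK-LSD1 differed was tested as an interaction over all 8 libraries. No core histone gene passed, and 0% of the 16558 genes tested passed by edgeR, with 1268 at an unadjusted p-value under 0.05. By DESeq2, 94 genes passed, 0 of them core histone genes. H2BC17 had the smallest p-value among the 34 core histone genes tested, with a difference of the log2 fold changes of -1.01 ± 0.38 (edgeR adjusted p = 0.60).

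Other genes of histone supply were followed from fixed lists. Of the linker histones H1-1 to H1-6, whose genes lie in the same cluster and whose mRNAs share the stem-loop, 0 of 3 tested were called in either treatment, and 0 of 2 in Vector against Vehicle. H1-2, the highest of them, read 146 and 142 TPM in Vector, 105 and 140.3 in EBF2-OE, 174 and 183 in Vehicle, and 182 and 192 in GSK-LSD1. Like most core histone genes, it was lower in EBF2-OE 2 than in EBF2-OE 3.

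Variant histones are made outside S phase as well and their mRNAs carry a poly(A) tail, or both kinds of end in the case of H2AX. Their 12 genes summed to between 3065 and 3349 TPM in each library, above the 463 to 699 TPM of all core histone genes together. Most core histone mRNAs lack the tail selected for, so these sums do not compare amounts in the cells. In EBF2-OE against Vector 0 of 11 variant genes tested were called. In GSK-LSD1 against Vehicle 1 of 10 was called, H2AX, whose protein marks DNA breaks when phosphorylated, which fell from 239 and 176 to 122 and 120.3 TPM, a log2 fold change of -0.74 ± 0.12 (edgeR adjusted p = 0.0017). In Vector against Vehicle H2AX (-1.43) and the linker variant H1-10 (-0.95) were called lower and H3-3B (0.80), which encodes the replacement histone H3.3, higher. H2AZ1, the most abundant of the list, read 1303 and 1489 TPM in Vector, 1357 and 1313 in EBF2-OE, 1008 and 1045 in Vehicle, and 1190.2 and 1129 in GSK-LSD1.

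Another list held genes that transcribe histone genes and process their mRNA. Of its 20, 19 were tested, with 0 called in either treatment and 1 called higher in Vector against Vehicle, the cleavage factor gene CSTF2 (log2 fold change 0.67 ± 0.10). SLBP, the stem-loop binding protein, read 24.4 and 25.6 TPM in Vector, 23.4 and 24.2 in EBF2-OE, 31.6 and 31.6 in Vehicle, and 29.2 and 27.9 in GSK-LSD1. It was not called in any of the 3 comparisons, with log2 fold changes of -0.04 ± 0.12, -0.11 ± 0.06 and -0.36 ± 0.09. NPAT, the activator of histone gene transcription, stayed between 6.57 and 8.68 TPM. CDK2, the highest of the list, read 179 to 236 TPM. The 9 histone mRNA decay genes, of which UPF1 was the highest at 84.9 to 122 TPM, gave 0 calls.

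Histone chaperones carry new histones to the DNA. Of 17 tested, 0 were called in either treatment, and in Vector against Vehicle the importin gene IPO4 was called higher (0.79 ± 0.08) and ASF1B, a chaperone of H3 and H4, lower (-0.81 ± 0.07). SSRP1, the highest, read 297 to 415 TPM. Of 30 S phase genes, 0 were called in EBF2-OE against Vector, with 26 negative log2 fold changes and a median of -0.11. Over all genes tested, 50.9% were positive and the median was 0.00. The S phase sums were 4114 TPM in Vector 2, 4032 and 4034 in EBF2-OE 2 and 3, and higher only in Vector 3, at 4659. CDT1, which licenses replication origins, was the 1 called in GSK-LSD1 against Vehicle, from 251 and 256 to 143 and 161 TPM (log2 fold change -0.70 ± 0.06, edgeR adjusted p = 2.7e-05), and the 1 called in Vector against Vehicle (-1.17 ± 0.11). MCM7, the highest of them, read 430.2 to 597 TPM. For comparison, the median over the 31 core histone genes in GSK-LSD1 against Vehicle was 0.01 and that over the 30 S phase genes -0.08.

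The RNAs without a poly(A) tail outside the histones were listed because, like most core histone mRNAs, they have no tail by which poly(A) selection could capture them. In EBF2-OE against Vector 0 of 6 tested were called. RPPH1 and RN7SL1 were called higher in GSK-LSD1 against Vehicle on the level of GSK-LSD1 1 described above, at log2 fold changes of 6.83 ± 1.71 and 1.63 ± 0.51. In Vector against Vehicle RN7SL2 (-1.32 ± 0.19) and RN7SL1 (-0.93 ± 0.17) were called lower and SNORD3A (1.74 ± 0.38) higher. Their summed level was 190 to 276 CPM in the Vector and EBF2-OE libraries and 458 to 575 CPM in the Vehicle libraries, and their part in the core histone differences was not tested.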

How the data were processed

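RNA-seq of 8 SW1990 libraries was analysed. According to the labels and the paper's methods, the authors enriched poly(A) RNA, prepared libraries with a kit that does not mark strand, aligned reads to hg38 with HISAT2 and obtained raw counts per gene with HTSeq; versions, strand and multi-mapping settings are not given in the sources used here. The deposited TPM, recomputed from the counts and listed gene lengths, differed only by rounding error, and it was used for levels only.

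Counts were tested with edgeR 4.0.16 (R 4.3.3): TMM normalization, filterByExpr with a minimum count of 10, the two-sided quasi-likelihood test on the 4 libraries of a comparison, and Benjamini-Hochberg adjustment over all genes tested. SEs were taken from the test statistic. Normalized CPM uses the TMM factors. The alternatives were DESeq2 1.42.0, its size factors in edgeR, other low-count filters, 1 fit over 8 libraries, no adjustment, no fold limit, a replicate block and leaving out each library.

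The libraries of a group were no copies of each other (chi-square per degree of freedom at least 5.34). The members and gene lists were chosen with earlier results of these data known. Given with every library are the 10 members of highest mean TPM, the called members and, where none was called, the 3 of smallest p-value; H2AC7, H2BC4, H2BC18, H3C6 and the genes named by library order or gene pair were chosen after their values were seen. Intervals for counts cover counting error only. Proteins, reads and other assays were not analysed here.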

Additional observations from a re-analysis of the deposited data

How the results depend on the processing

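Each group had 2 libraries, only 25 of the 60 genes reached 10 counts in every library, and histone mRNA without a tail was not measured separately. Calls in EBF2-OE against Vector rose from 0 to 1 with unadjusted p-values (H2BC17) and to 1 with no low-count filter (H3C4). In GSK-LSD1 against Vehicle they rose from 0 to 2 without a fold limit, and ranged from 0 to 1 with a library left out (H2AC6 without Vehicle 1, H2BC15 without Vehicle 2). In Vector against Vehicle the 4 calls became 14 with unadjusted p-values, 9 with no low-count filter and 2 in 1 fit over all 8 libraries, while the 2558 calls over all genes became 3484, 3377 and 2778, and the 4 ranged from 0 to 12 with a library left out. The cause was not tested. No library left out gave a call in EBF2-OE against Vector or in the interaction.

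With a library left out, the median log2 fold change ranged from -0.49 to 0.20 in EBF2-OE against Vector, from 0.00063 to 0.19 in GSK-LSD1 against Vehicle and from 0.096 to 0.31 in Vector against Vehicle. Single genes turned direction with a library left out only, 19 times over 12 gene and comparison pairs of 34. In EBF2-OE against Vector the ranges were -0.27 to 0.33 for H2BC12, -0.12 to 0.49 for H2AC11, -0.18 to 0.75 for H2BC21, -0.51 to 0.054 for H2BC15, -0.065 to 0.16 for H2BC5, -0.26 to 0.27 for H3C10, -0.35 to 0.34 for H2BC11, -0.42 to 0.56 for H4C9 and -0.27 to 0.60 for H2BC9. In GSK-LSD1 against Vehicle they were -0.14 to 0.00037 for H2BC5, -0.30 to 0.26 for H2BC11 and -0.19 to 0.41 for H4C9. Of 329 single-gene alternatives 287 kept direction and call, 15 lost a call and 8 gained one.

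Relative to its 4 libraries, the summed level moved in Vector 2 (630.0 TPM; 113 CPM without H2BC12), Vector 3 (90.4 CPM without H2BC12), GSK-LSD1 1 (521 TPM) and GSK-LSD1 2 (94.6 CPM without H2BC12). The labels do not say that equal replicate numbers pair libraries, and the correlation of same-numbered deviations was 0.31 in EBF2-OE and Vector and -0.01 in GSK-LSD1 and Vehicle. With the replicate block, 0 core histone genes were called in both treatments, with medians of -0.14 and 0.01, and over all genes 5 were called in place of 0 in EBF2-OE against Vector. No block could be fitted for Vector against Vehicle, which share 1 number.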
